A study of Mus musculus with 30 samples.

Results

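Week 6 was set against the ages on both sides of it, weeks 3 and 8, to find the genes of the mouse sclera whose signal peaked or dipped there. The sclera is the white outer wall of the eye, a sheet of collagen fibrils, proteoglycans and elastic fibres laid down by fibroblasts. It thickens and stiffens after birth as the eye grows, and weaning and puberty fall between the ages compared here. In the mouse eye the choroid lines the inside of the sclera, and the pigmented epithelium lies beyond the choroid. The eye muscles and conjunctiva lie on the outside of the sclera, so a dissected shell can carry RNA of each of these.

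Each array held RNA from a single sclera of 1 Balb/cJ mouse, an albino inbred strain, with no treatment in any group. The mice came from the same family and were 3, 6 or 8 weeks old, and mice of 1 and 2 weeks were measured in the same way. The comparison used 18 of the 30 arrays, 6 for each of weeks 3, 6 and 8, on the Mouse Gene 1.0 ST array, which reads each gene through probes spread along its transcripts. Week 2 had 5 arrays with values of their own, because replicate 4 held the mean of the other 5 (within 0.0001) for 100% of transcript clusters, against at most 0.0619% for any of the 29 other arrays. It was left out of week 2 ranges, medians and SDs. The 9 markers of scleral fibroblasts were all above the median signal in week 6, and so were the 7 of striated muscle, the 4 measured of photoreceptors and the 5 of melanocytes. Values are log2 signals as deposited, so a difference of 1 is a 2-fold change, and a transcript cluster is the set of probes that the array assigns to 1 transcribed locus.

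A gene was taken as a turning point where all 6 arrays of week 6 lay above, or all 6 below, every one of the 12 arrays of weeks 3 and 8. Of 19938 genes with a transcript cluster of their own, 1282 (6.43%) lay above and 860 (4.31%) lay below, 10.7% in all. Over all 35556 transcript clusters, named or not, 2313 (6.51%) lay above and 1291 (3.63%) below. The size of each turn is the week 6 mean minus the average of the week 3 and week 8 means. Its median was 0.64 over the genes above and -0.61 over the genes below, against 0.06 over all genes. In limma, fitted over all 30 arrays with Benjamini-Hochberg adjustment across every transcript cluster, a gene was said to have risen or fallen at a change of at least 2-fold and an adjusted p of 0.05 or less. By that test 214 genes (1.07%) rose and 145 (0.727%) fell, and 113 of those that rose and 70 of those that fell were also free of overlap. The fit kept the averaged week 2 array, and without it the contrast called the same 1305 transcript clusters. A gene free of overlap has a difference by construction, so its adjusted p describes the gene and is no further evidence for it.

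The share of turns that went up depended on the scale of the arrays. Of the transcript clusters free of overlap, 64.2% lay above as deposited, 44.5% after each array was centred on its median and 51.5% after quantile normalization. Of those called by the contrast, 66.4% were higher as deposited and 52.1% after median centring. The median difference over all transcript clusters was 0.08 as deposited and -0.02 after quantile normalization. Among genes, 757 of the 1282 above and 809 of the 860 below were again free of overlap on the same side after median centring. The arrays of week 6 had an interquartile range of signal between 2.26 and 2.64, those of week 3 one between 2.71 and 2.80, and those of week 8 one between 2.33 and 2.67. With this range as a covariate the contrast called 2060 transcript clusters in place of 1305. Of these, 1062 were shared with the main fit and 76.4% were higher. The cause was not tested, and the counts free of overlap were not adjusted for this range. Week 8 replicates 2 and 6 stood apart from the other arrays of their week for many of the genes below. Without both, chosen after seeing the data, the contrast called 1276 transcript clusters in place of 1305, and 5011 in place of 3604 were free of overlap. That count can only rise when fewer flanking arrays have to be cleared. It was 4524 without replicate 2 alone and 3798 without replicate 6 alone.

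**Figure D1:**
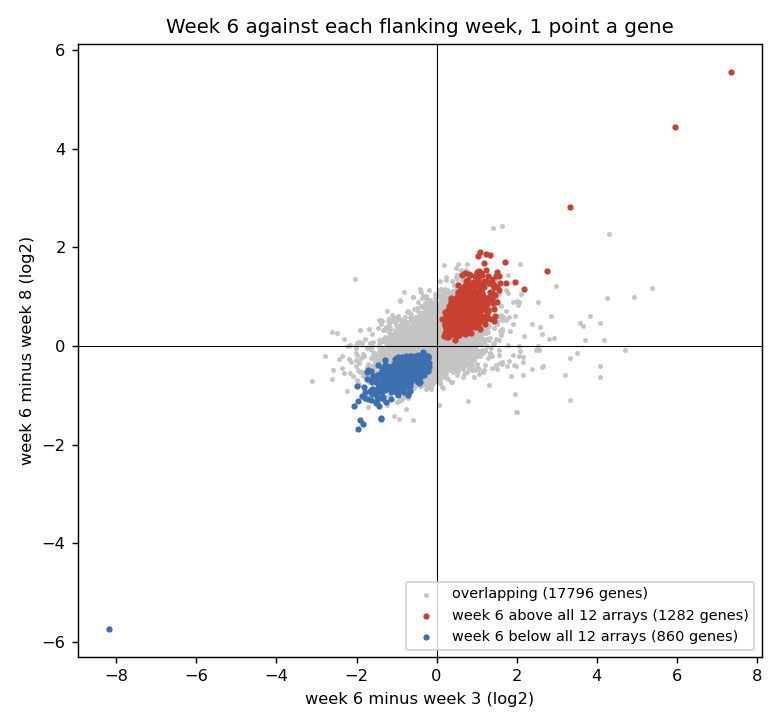
Difference of week 6 from week 3 (horizontal axis, log2) and from week 8 (vertical axis, log2) for each of 19938 genes, 1 point a gene. Red points are the 1282 genes whose week 6 arrays lay above all 12 arrays of the flanking weeks and blue points the 860 below them, which by the rule sit to the upper right and lower left of 0.

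Before any other gene, those of the sex chromosomes stood apart. Xist, the RNA that coats the inactive X chromosome in female cells, had the largest fall of any gene free of overlap. Its log2 signal ran from 12.57 to 12.94 in week 3 and from 10.05 to 10.48 in week 8. In week 6 the lowest array was at 1.70, the median at 4.53 and the highest at 7.52. All 6 arrays of week 6 were thus below every flanking array, with a difference of -6.96 (SE 1.05, adjusted p = 3.8e-06). Of the 9 measured Y-linked genes, 3 did the opposite and lay above, and none lay below. The median difference over the 9 was 0.37. Eif2s3y, a translation initiation factor subunit encoded on the Y chromosome, lay between 0.59 and 0.81 in week 3, between 2.41 and 2.77 in week 8 and between 5.90 and 10.38 in week 6. Its difference was 6.45 (SE 0.83), and those of Uty and Kdm5d, a pair of Y-linked histone demethylase genes, were 5.19 (SE 0.69) and 3.08 (SE 0.48). Of the X-linked partners of these genes, Kdm5c lay between 7.82 and 8.34 in week 6 and at 8.56 or more in every flanking array. Eif2s3x and Kdm6a overlapped, with differences of 0.02 and -0.21. Ddx3x, X-linked but a partner of none of the Y-linked genes named, overlapped at -0.06. A dimmer transcript cluster of Ddx3x gave 0.63, also with overlap.

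No source used here gives the sex of these mice, and at weeks 3, 6 and 8 it cannot be told apart from age. Weeks 1 and 2 held arrays at both ends, since Xist ran from 4.71 to 11.34 in week 1 and from 6.96 to 12.70 in week 2. Within week 6 the arrays did not share a level either, as Xist was at 7.52 and 7.20 in replicates 1 and 2, at 4.44 and 4.62 in replicates 4 and 6, and at 1.70 and 1.71 in replicates 3 and 5. With the transcript clusters of X- and Y-linked genes left out, an alternative chosen after seeing the data, 828 transcript clusters were higher and 438 lower by the contrast, against 866 (2.44%) and 439 (1.23%) with them. Of the 739 measured X-linked genes, 58 (7.85%) lay above and 9 (1.22%) below. Whether a gene on another chromosome followed sex or age was not tested.

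**Figure D2:**
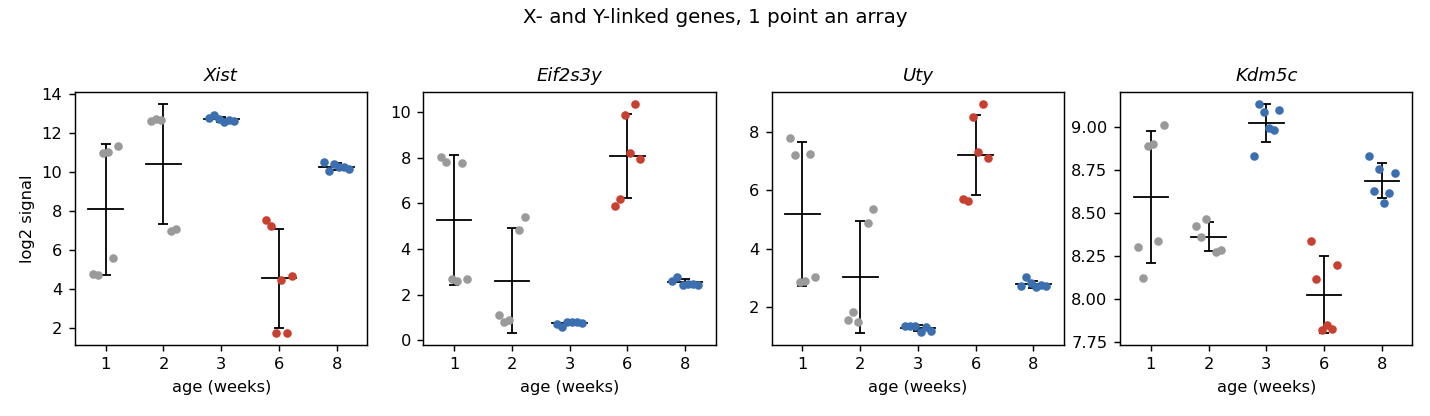
Log2 signal of Xist, Eif2s3y, Uty and Kdm5c in each array by age in weeks (6 an age, 5 at week 2), with the mean and SD in black. Week 6 is red, weeks 3 and 8 blue, weeks 1 and 2 grey, and in each panel the red points lie wholly on one side of the blue ones.

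The largest turns upward outside the sex chromosomes were in genes of varied function. Gp2, a membrane glycoprotein of secretory granules, had a median of 6.33 in week 6, against 3.58 in week 3 and 4.63 in week 8. Its lowest week 6 array, at 5.82, was above the highest flanking array, at 5.70, but the groups overlapped after median centring. Usp31, a ubiquitin-specific protease, had the smallest SE among the 12 largest turns upward. Its signal ran from 7.07 to 7.46 in week 3, from 8.44 to 8.66 in week 6 and from 6.45 to 7.01 in week 8, a difference of 1.60 (SE 0.08, adjusted p = 3.6e-14). A dimmer transcript cluster with the same symbol did not show this turn, with a difference of -0.07. Sptssa, a small subunit of serine palmitoyltransferase, the first enzyme of sphingolipid synthesis, stood at medians of 7.65, 8.77 and 6.88 in weeks 3, 6 and 8. Its week 6 arrays were also above every array of weeks 1 and 2.

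A2m, the protease inhibitor alpha-2-macroglobulin, lay between 6.92 and 7.44 in week 3, between 9.07 and 9.94 in week 6 and between 7.74 and 8.53 in week 8. Cacna2d1, an auxiliary subunit of voltage-gated calcium channels, had a difference of 1.63 (SE 0.23), and a further transcript cluster of the gene gave 1.64. Lce3a, a late cornified envelope gene, Lgi1, a secreted glycoprotein of neurons, and Kcnj13, a potassium channel of pigmented epithelium, had differences of 1.71, 1.55 and 1.51. The groups of Kcnj13 overlapped after median centring, and 1 of its week 8 arrays stood at 5.81 against 8.35 to 9.09 for the other 5.

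**Figure D3:**
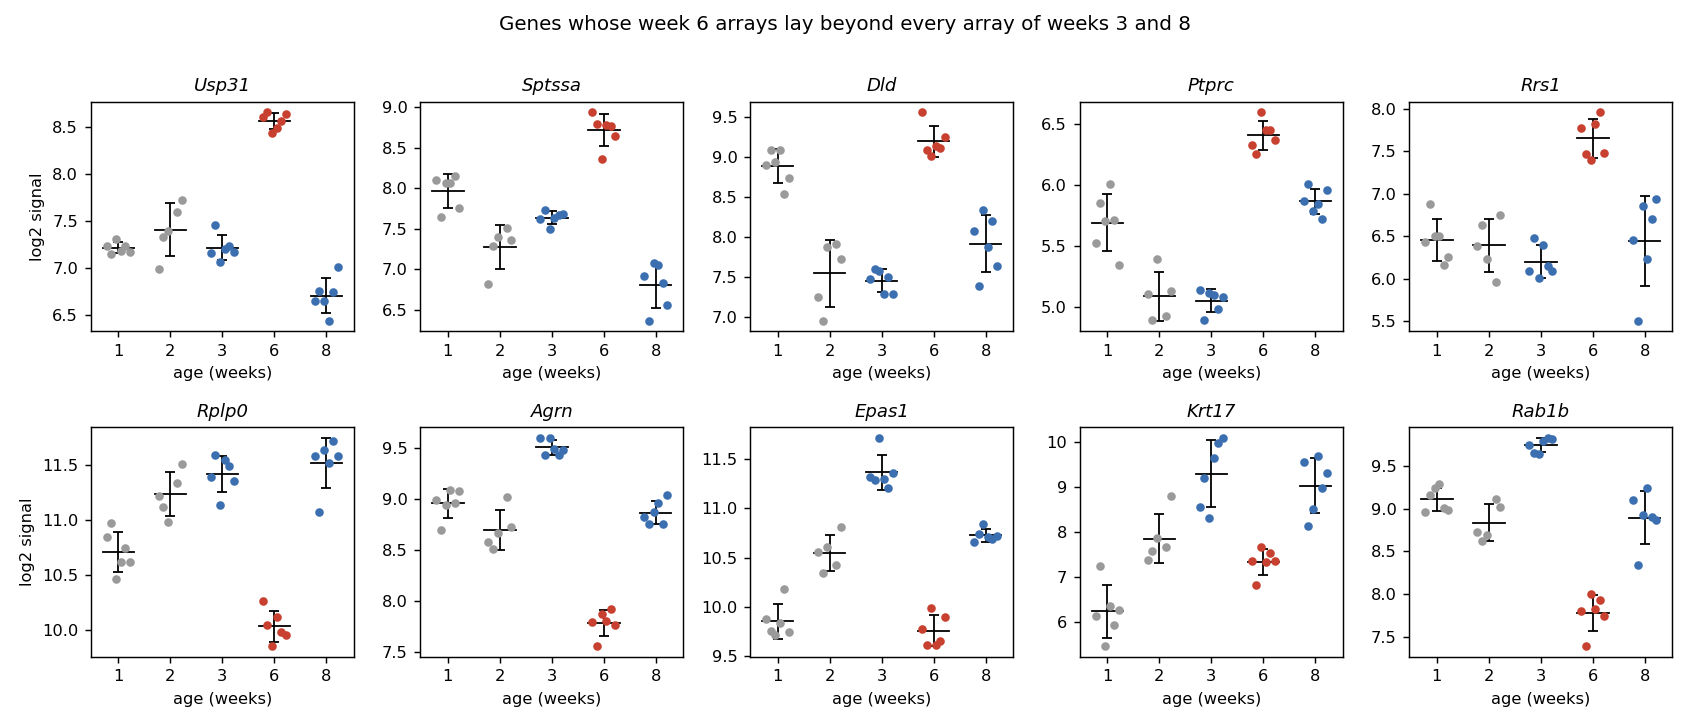
Log2 signal of 10 genes free of overlap in each array by age in weeks (6 an age, 5 at week 2), with the mean and SD in black and week 6 in red, weeks 3 and 8 in blue and weeks 1 and 2 in grey. The upper row holds genes above both flanking weeks and the lower row genes below them.

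Keratins followed Xist as the largest turns downward. Keratins are the intermediate filaments of epithelial cells, and those named here belong to stratified surface epithelium such as conjunctiva. Of 44 measured genes of surface epithelium, 8 fell and none rose, and 6 (13.6%) lay below every flanking array, against 4.31% of all genes. The median difference of the list was -0.32. Krt17 had 8.30, 9.42 and 10.09 as its lowest, median and highest signal in week 3, 6.82, 7.35 and 7.65 in week 6, and 8.12, 9.15 and 9.70 in week 8. The fall was 3.53-fold, with a difference of -1.82 (SE 0.27, adjusted p = 2.35e-06). Krt4, which lines non-cornified epithelium, ran from 8.94 to 9.79 in week 6 and was at 10.28 or more in both other weeks. Krt16, Krt19 and Krt13 lay below as well, with differences of -1.71, -1.33 and -1.21, and so did Jup, the junction protein plakoglobin, at -1.33.

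The other keratins of the list did not move as one. Krt14 and Krt6b fell, by 1.24 and 1.22 on the log2 scale, but their arrays overlapped. The basal keratin Krt5 and the corneal keratin Krt12 had differences of -0.43 (SE 0.21) and 0.56 (SE 0.55) and were not called. Week 3 replicate 3 and week 8 replicate 2 stood low for Krt12, at 8.36 and 11.56, against medians of 12.80 and 13.08 in their weeks. Over the 6 markers of surface epithelium (all 6 above the median signal of the array in week 6) the mean signal of an array ran from 9.79 to 11.75 in week 3, from 10.40 to 10.88 in week 6 and from 10.68 to 11.73 in week 8, so the marker level as a whole overlapped. In whole tissue, fewer cells of a type and less RNA per cell cannot be told apart.

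The matrix and its surroundings gave fewer turns. None of the 33 measured genes of fibrillar collagen and fibril organisation was called, and 1 lay below, Plod3, a lysyl hydroxylase that modifies collagen chains, at -0.67 (SE 0.09). Of 36 genes of other collagens and basement membrane 3 fell and 2 (5.56%) lay below, near the share of all genes. Agrn, the heparan sulphate proteoglycan agrin, lay between 9.43 and 9.60 in week 3, between 7.56 and 7.93 in week 6 and between 8.76 and 9.03 in week 8. No array of another age, weeks 1 and 2 included, reached down to week 6, and the difference was -1.40 (SE 0.07, adjusted p = 3e-14). Lama5, a laminin chain, fell by 1.21 without overlap. Hspg2, the proteoglycan perlecan, fell by the same amount with overlap, as its week 6 arrays ran from 7.61 to 9.09 and those of week 8 from 8.40 to 9.56.

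In the elastic fibre list, 2 of 19 genes fell and 1 (5.26%) lay below, against 0.727% and 4.31% of all genes. Ltbp4, which binds latent TGF-beta and guides elastin assembly, had medians of 10.21, 8.42 and 9.35 in weeks 3, 6 and 8, with no overlap. Eln, elastin itself, had the larger difference, -1.91 (SE 0.21), yet overlapped week 8. Its medians were 11.02, 7.95 and 8.62, so most of its fall lay between weeks 3 and 6. Of 36 proteoglycan genes 3 rose and none fell, and 1 (2.78%) lay above, with a list median of 0.04. These 3 are small leucine-rich proteoglycans. Kera, keratocan, had medians of 7.09, 8.71 and 7.24 and rose by 1.45 (SE 0.27), without overlap as deposited but not after median centring. Lum and Ogn, lumican and osteoglycin, rose by 1.02 and 1.11 with overlap, and both had their lowest week 8 signal in replicate 6. Without that array Ogn was at 0.96 and no longer reached 2-fold, and neither did Lum under 9 of the alternatives, where its difference ran from 0.87 to 0.98.

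Of 62 growth factors and their receptors 3 fell and none rose, with 4 (6.45%) below and 1 above. Of 28 genes of hypoxia and glycolysis 2 fell and 2 (7.14%) lay below. Over all genes 0.727% fell and 4.31% lay below. Epas1, the hypoxia-inducible factor HIF-2 alpha, ran from 11.21 to 11.72 in week 3, from 9.61 to 9.99 in week 6 and from 10.66 to 10.84 in week 8. Notch3, the Notch receptor of pericytes and smooth muscle, had a difference of -1.23 (SE 0.08), and Fgfr3, a fibroblast growth factor receptor, one of -1.03 (SE 0.12). Fgfr3 no longer reached 2-fold under 6 alternatives, among them quantile normalization at -0.98. Erbb2, a receptor of the epidermal growth factor family, lay below at -0.83. Nes, nestin, an intermediate filament of progenitor and endothelial cells, lay below all arrays of every other age, with a week 6 range of 4.97 to 5.69. The largest of the remaining turns downward were Rab1b, a GTPase of transport from endoplasmic reticulum to Golgi, at -1.54, Selenow, a small selenoprotein, at -1.43, and Anpep, aminopeptidase N, at -1.42.

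**Figure D4:**
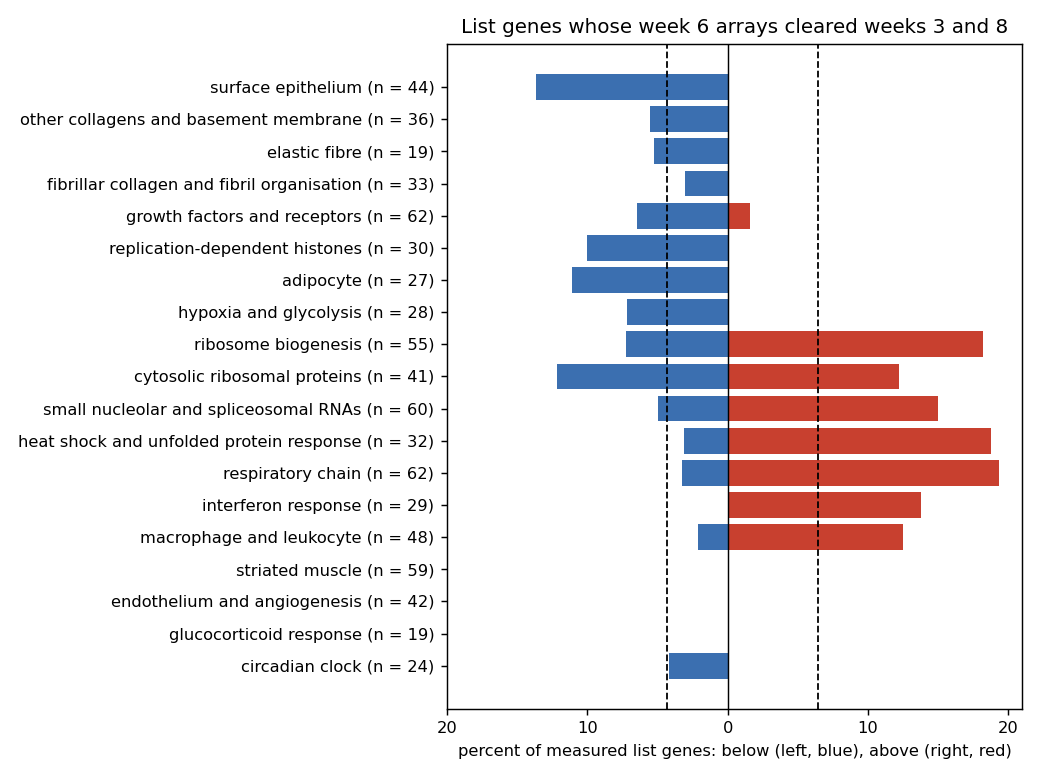
Percent of the measured genes of 19 lists whose week 6 arrays all lay above (red, right) or all below (blue, left) the arrays of weeks 3 and 8. Dashed lines mark the share over all genes, 6.43% above and 4.31% below, and the number of measured genes stands beside each list.

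Ribosome assembly starts in the nucleolus, where small nucleolar RNAs guide the modification of ribosomal RNA. Of 55 genes of ribosome biogenesis, 10 (18.2%) lay above and 4 (7.27%) below, 2 rose and none fell. After median centring 9 lay above and 3 below. Rrs1, needed for assembly of the large subunit, ran from 7.40 to 7.96 in week 6 and reached at most 6.48 in week 3 and 6.93 in week 8. Dkc1, the pseudouridine synthase of small nucleolar RNA particles, rose by 1.17 (SE 0.13), and it is X-linked. Gnl3 and Tsr1 lay above at 0.81 and 0.94, short of 2-fold, whereas Rrp9, a protein of the U3 particle, lay below at -0.75.

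Of the 60 measured small nucleolar and spliceosomal RNAs and their host genes, 9 (15%) lay above and 3 (5%) below. Snord87, Snora69, Snora23 and Snora21 rose by 1.25, 1.06, 1.04 and 1.02. Snord37 fell most, with medians of 6.25, 4.15 and 5.31 in weeks 3, 6 and 8. Among 41 ribosomal proteins 5 lay above and 5 below as deposited, 2 and 5 after median centring, and 8 and 7 after quantile normalization. Rplp0, a stalk protein often used as a reference gene, ran from 11.14 to 11.59 in week 3, from 9.85 to 10.26 in week 6 and from 11.08 to 11.72 in week 8. It fell 2.70-fold, and a second transcript cluster of the gene differed by -0.61 with overlap. Rps20 lay above at 0.83 and Rpsa below at -0.76, and the 4 other transcript clusters of Rpsa all overlapped.

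Of 62 genes of the respiratory chain and ATP synthase 12 (19.4%) lay above and 2 (3.23%) below, with a median difference of 0.19. After median centring 5 lay above, and after quantile normalization 12. Ndufs6 and Ndufb3, subunits of complex I, had differences of 0.87 and 0.85. Cycs, cytochrome c, was at 0.97 (SE 0.17), and 2 further transcript clusters of it also lay above, at 1.03 and 1.37. The exceptions were Atp5d, a subunit of ATP synthase, and Uqcrc1, a core protein of complex III, at -0.89 and -0.83. Dld, a subunit that the pyruvate and 2-oxoglutarate dehydrogenase complexes share, was not in the list and rose by 1.51 (SE 0.13), from 7.49 in week 3 to 9.13 in week 6 against 7.98 in week 8 by medians.

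Chaperones also gave small turns upward. Of 32 genes of the heat shock and unfolded protein responses 6 (18.8%) lay above and 1 (3.13%) below. Dnajb4, a co-chaperone of Hsp70, rose by 1.05 (SE 0.13), and after median centring it was at 0.96. Dnaja1, Hspd1 and Hsp90aa1, a co-chaperone, the mitochondrial chaperonin and a cytosolic chaperone, had differences of 0.80, 0.83 and 0.78. Hsp90aa1 overlapped after median centring. A further transcript cluster of Dnaja1, at 0.33, and 2 of Hsp90aa1, at 0.65 and 0.41, overlapped, whereas that of Hspd1 lay above at 1.24. Hspb1, a small heat shock protein abundant in epithelium, fell by 1.22 with overlap.

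Genes of immune cells and of the interferon response lay above in part. Of 48 genes of macrophages and leukocytes none was called, but 6 (12.5%) lay above and 1 (2.08%) below. After median centring the same counts were 2 and 2. Ptprc, the common leukocyte antigen CD45, ran from 4.90 to 5.14 in week 3, from 6.25 to 6.60 in week 6 and from 5.72 to 6.01 in week 8. Its week 6 arrays were above those of every other age, and Cd53, Cybb and Mrc1, a leukocyte tetraspanin, an oxidase subunit and the mannose receptor, had differences of 0.75, 0.86 and 0.82. Over the 5 measured macrophage and leukocyte markers the mean signal of an array ran from 6.34 to 6.56 in week 3, from 6.41 to 7.04 in week 6 and from 6.67 to 6.99 in week 8, which overlapped.

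Of 29 interferon-response genes 4 rose, none fell and 4 (13.8%) lay above, with a list median of 0.42. After median centring 2 lay above. Ifit1, an antiviral protein induced by interferon, rose most, by 1.88 (SE 0.27). Its week 6 arrays ran from 7.13 to 8.69, and 1 week 8 array, at 7.70, overlapped them. Ifi27l2a, which rose by 1.36, was free of overlap as deposited but not after median centring. Usp18 and Ifih1, an enzyme that removes ISG15 and a sensor of viral RNA, rose by 1.21 and 1.03 with overlap. For Ifit1, Ifi27l2a and Usp18 replicate 2 was the highest array of week 3, at 6.84, 7.16 and 6.81. C7, a complement component, lay above every array of all other ages, with medians of 4.44, 6.02 and 4.61 in weeks 3, 6 and 8.

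Of 30 measured replication-dependent histone genes 4 fell and 3 (10%) lay below. H4c4 and H4f16, which encode histone H4, had week 6 ranges of 7.91 to 8.17 and 6.58 to 6.87, below those of every other age. None of the 49 genes of the cell cycle and DNA replication was called or free of overlap. The variant histone H3f3a lay above at 0.69 (SE 0.06). In the adipocyte list the median difference was 0.11 and 1 of 27 genes rose, while 3 (11.1%) lay below, among them Fasn, fatty acid synthase, at -0.78 and Pnpla2, the lipase ATGL, at -0.77. Srebf1, which controls lipid synthesis genes, lay below at -0.81 (SE 0.07), the 1 gene of 20 in the list of cholesterol and lipid synthesis to do so. That list had a median of 0.22, and Msmo1, a sterol oxidase, rose by 1.09 with overlap.

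Genes named for miRNAs lay above at about the rate of all genes, 18 of 297 (6.06%), and 1 lay below. They were picked out after their values were seen, for the seeds that some of them share. A miRNA silences mRNAs that pair with its seed, bases 2 to 8 of the mature strand. The array reads RNA that covers the hairpin region and these signals are not levels of the mature miRNA. The mature strands below are from RefSeq (GRCm38.p6), with the seed in capitals. The first 3 share a seed, the next 2 share another, and the last 3 have seeds of their own.
mmu-miR-15a-5p: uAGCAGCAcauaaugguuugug
mmu-miR-15b-5p: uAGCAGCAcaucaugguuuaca
mmu-miR-16-5p: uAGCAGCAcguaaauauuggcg
mmu-let-7f-5p: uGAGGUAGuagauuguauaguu
mmu-let-7g-5p: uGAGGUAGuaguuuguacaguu
mmu-miR-103-3p: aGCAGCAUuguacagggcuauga
mmu-miR-19b-3p: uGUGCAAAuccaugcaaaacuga
mmu-miR-200a-3p: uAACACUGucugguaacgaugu

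The loci Mir15a, Mir15b and Mir16-1 had differences of 0.73 (SE 0.07), 0.91 (SE 0.13) and 0.47 (SE 0.08). Mir15a ran from 5.94 to 6.40 in week 3, from 6.86 to 7.15 in week 6 and from 6.18 to 6.45 in week 8. Mir16-1 overlapped after median centring. Mirlet7f-1 and Mirlet7g were at 0.71 and 0.45. After quantile normalization Mir15b, Mir16-1, Mirlet7f-1 and Mirlet7g overlapped. Mir103-2 and Mir19b-1 rose by 1.05 and 1.03, and both were under 2-fold after median centring, at 0.96 and 0.95. Mir200a, a miRNA locus known from epithelial cells, was the one below, at -0.61 (SE 0.10). Of 12 pairs of a locus and a measured gene that spans it, the second gene was free of overlap in 1, Ska2 at 0.62, which spans Mir301 at 0.32. The share over all genes was 10.7%, so 1 of 12 does not tell whether spanning genes turned with their loci. Smc4, Mir100hg, Zranb2 and Sfmbt2 overlapped but had differences in the direction of their loci, of 0.57, 0.45, 0.36 and 0.22. Atp5b and Cercam went the other way, at -0.32 and -0.42. Wdr82, Nexmif and Pank2 were at 0.14, 0.07 and -0.02. Dleu2, which spans Mir15a and Mir16-1, was at -0.11 (SE 0.08, adjusted p = 0.261).

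The contrast also called genes whose week 6 arrays overlapped a flanking week. Of the 214 genes that rose, 101 overlapped a flanking array, and 62 of those 101 passed against week 3 but not against week 8, 18 against week 8 but not week 3, and 21 against both. Over all genes 1.94% passed as higher than week 3 and 1.14% as higher than week 8, and 3.03% and 0.231% as lower. Of the 145 that fell, 75 overlapped, and 61 of them passed against week 3 but not against week 8, 5 against week 8 but not week 3, and 9 against both. Of 59 striated muscle genes 23 rose, against 1.07% of all genes, and none was free of overlap. The list mean went from 6.40 ± 0.597 at week 3 to 8.23 ± 0.417 at week 6, and week 8 was at 8.33 ± 0.419 (SD, n = 6), and the median differences of its genes from weeks 3 and 8 were 1.77 and -0.01. Ttn, titin, had medians of 6.11, 10.93 and 11.04, a step from week 3 that week 8 kept.

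Endothelial genes stepped the other way. Of 42, 8 fell, against 0.727% of all genes, and none was free of overlap. Their median differences from weeks 3 and 8 were -0.96 and -0.01. Eng, the TGF-beta co-receptor endoglin, had medians of 10.37, 7.94 and 8.42. Genes that glucocorticoids induce stood high at week 3 alone, where the list mean was 8.79 ± 0.168, against 7.58 ± 0.121 in week 6 and 7.59 ± 0.0760 in week 8. The means of weeks 1 and 2 were 7.54 ± 0.0887 (SD, n = 6) and 7.52 ± 0.151 (SD, n = 5), and 5 of the 19 genes fell by the contrast. Fkbp5, a chaperone of steroid receptors, was at 9.42, 6.80 and 6.58 by medians, and Zbtb16, a zinc finger repressor, at 9.71, 7.30 and 7.02. The pigmented epithelium list differed from these in that 4 of its genes were higher by the test against each flanking week. Over all genes 0.401% passed both tests and 1.07% rose by the contrast. Of the 18 genes of the list 6 rose, 1 (5.56%) lay above and 1 below. Rpe65, the isomerase of the visual cycle, rose by 2.04 (SE 0.52) and differed from week 3 by 1.63 and from week 8 by 2.44. Its week 8 arrays ran from 3.58 to 7.86 and week 6 arrays from 7.73 to 10.24. Over the 4 markers of that epithelium the mean signal ran from 6.73 to 7.56 in week 3, from 7.47 to 8.93 in week 6 and from 5.24 to 8.00 in week 8.

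**Figure D5:**
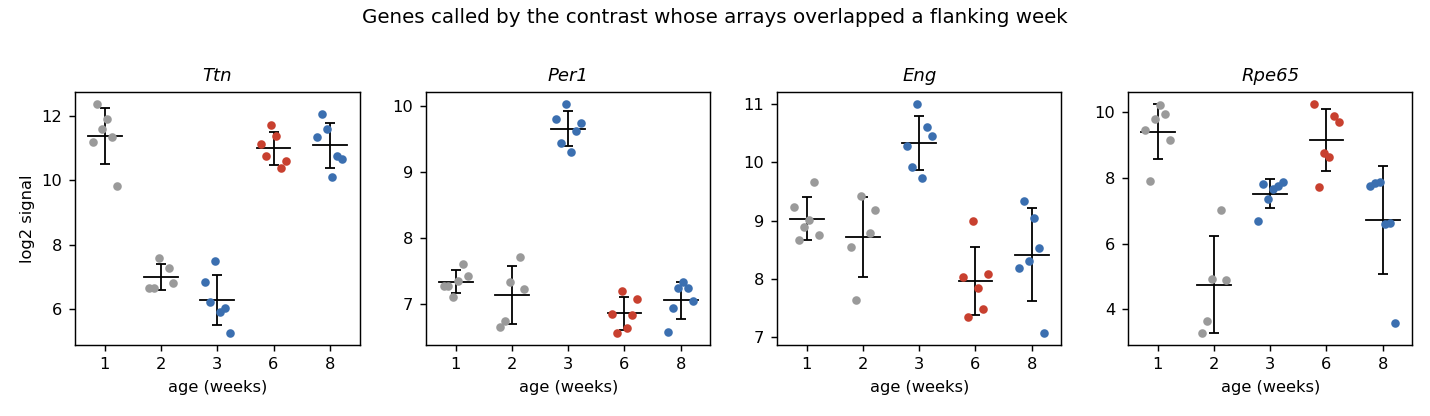
Log2 signal of Ttn, Per1, Eng and Rpe65 in each array by age in weeks (6 an age, 5 at week 2), with the mean and SD in black and week 6 in red, weeks 3 and 8 in blue and weeks 1 and 2 in grey. All 4 genes passed the contrast although their week 6 arrays overlapped those of week 8, at which Ttn, Per1 and Eng stood near week 6.

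The clock genes joined both patterns. Per1, a repressor of the circadian clock that glucocorticoids also induce, had medians of 9.68, 6.84 and 7.14 in weeks 3, 6 and 8 and differed from week 8 by -0.20. Ciart, a further repressor of the clock, was the only one of 24 clock genes free of overlap. It ran from 6.89 to 8.42 in week 3, from 5.78 to 6.22 in week 6 and from 6.28 to 6.78 in week 8, a difference of -1.12 (SE 0.15), and a dimmer transcript cluster gave -0.65 with overlap. Per2 and Per3 had differences of -0.50 and -0.10, Dbp one of -0.19, and Arntl, the activator known as BMAL1, one of 0.27. No source used here gives the hour of collection. CLOCK and BMAL1 bind the E-box CACGTG, a palindrome that reads alike on both strands. In the windows from 250 bases before to 50 after a transcript start, the promoters of Ciart (chr3:95882179-95882478, minus strand) and Per1 (chr11:69098699-69098998, plus strand, 1 of 2 windows of the gene) in GRCm38.p6 of RefSeq hold it 3 times and once. They are shown because these were the 2 clock genes that fell, with each match in capitals.
Ciart: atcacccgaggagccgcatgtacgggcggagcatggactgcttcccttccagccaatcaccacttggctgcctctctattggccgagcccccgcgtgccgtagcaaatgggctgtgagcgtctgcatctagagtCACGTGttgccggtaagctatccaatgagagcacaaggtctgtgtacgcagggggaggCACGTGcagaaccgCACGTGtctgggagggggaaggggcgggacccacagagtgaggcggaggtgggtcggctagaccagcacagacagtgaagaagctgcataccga
Per1: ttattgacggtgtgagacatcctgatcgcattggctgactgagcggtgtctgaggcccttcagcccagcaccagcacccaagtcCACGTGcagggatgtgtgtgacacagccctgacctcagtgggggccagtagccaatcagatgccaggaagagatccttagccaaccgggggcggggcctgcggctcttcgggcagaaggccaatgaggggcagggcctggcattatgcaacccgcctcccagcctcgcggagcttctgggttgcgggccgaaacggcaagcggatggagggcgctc

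The motif was in 7.15% of all 32851 promoter windows, and 5 of the 20 measured clock genes that have a window held it. A match is a string of letters and not a measured binding site.

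In 13 of the 42 lists no gene was free of overlap. Among them were phototransduction with 39 measured genes, olfactory receptors with 51, oxygen transport with 17, imprinted growth genes with 18 and lens with 21, in none of which a gene was called. The olfactory receptors, with low list means of 4.18, 4.49 and 4.36 in weeks 3, 6 and 8, still had a median difference of 0.23. That was larger than the 0.19 of the respiratory chain and the 0.18 of ribosome biogenesis. The melanin list was also among the 13 lists, although 3 of its 24 genes rose, namely Myo5a, Tyr and Dct, by 1.11, 1.10 and 1.01. Tyr, tyrosinase, is inactive as an enzyme in albino mice. Its arrays ran from 6.66 to 7.56 in week 3, from 6.82 to 8.37 in week 6 and from 5.05 to 6.74 in week 8, so that week 6 cleared week 8 but not week 3.

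Weeks 1 and 2 took no part in the choice of genes. The week 6 arrays did, and they enter the values that follow as well, so these are a description and not independent evidence. The share of all genes whose week 6 arrays cleared weeks 1 and 2 was not counted. Of the genes above, 319 (24.9%) also lay above every array of weeks 1 and 2, and of the genes below 182 (21.2%) also lay below them. The median difference of the genes above from week 1 was 0.28 and from week 2 was 0.72, against 0.11 and 0.02 over all genes. For the genes below these were -0.35 and -0.32. By these medians week 1 was nearer to week 6 than week 2 was for the genes above. Cacna2d1, for one, started at a median of 8.94 at week 1, stood at 6.01 and 6.35 at weeks 2 and 3, at 8.43 at week 6 and at 7.10 at week 8.

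Between weeks 3 and 8, 485 genes (2.43%) differed by the same thresholds, 0.818% higher and 1.62% lower in week 8, while among the 2142 turning genes 9 did, a low number that the rule favours because it asks for flanking weeks on the same side. Gp2 and A2m rose from week 3 to week 8. Ciart, Lama5, Nes, Yipf3, Lfng, Slc25a22 and Adgrg1 fell. Over all genes below, the median difference of week 8 from week 3 was -0.28, and over those above it was 0.00. A turn past 2-fold against each flanking week by its own test was rarer, with 80 genes higher (0.401%) and 30 lower (0.15%), and 59 and 21 of these were also free of overlap.

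Most turns were small. The middle 80% of the genes above had differences between 0.40 and 0.98, and the middle 80% of those below had differences between -0.96 and -0.37. The gap between week 6 and the nearest flanking array had a median of 0.14 above and 0.11 below. At the edge of the rule, Olfr1246, Tppp2 and Trit1 were the last genes above and Ppp6r3, Rsl24d1 and Tmem167b the first outside it, with differences of 0.43, 0.39 and 0.29 inside and 0.37, 0.47 and 0.40 outside. On the lower side Hdac4, Gemin8 and Zswim8 were just inside, at -0.41, -0.29 and -0.74, and Trrap, Dot1l and 2510002D24Rik just outside, at -0.42, -0.57 and -0.28. The gaps inside were at most 0.00048 on the log2 scale.

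The 2 sets differed in gene length and promoter composition, which the rule did not use. They also differed in mean signal, which comes in part from the arrays of the rule. All are given as descriptions over protein-coding genes. The median gene length in RefSeq was 29.5 kb above and 16.8 kb below, against 19.2 kb over all. The median GC content of the promoter window was 59.3% above, 62.7% below and 57.7% over all, with a window for 82.2%, 82.4% and 80.9% of the genes. The median log2 signal was 7.11 above, 7.64 below and 6.64 over all. By chromosome in RefSeq, the share above was highest among the autosomes on 12, at 11.04% of 652 genes, and the share below was highest on 17, at 7.91% of 936. Neighbouring genes share signal and sequence composition, so these shares were not tested.

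Of the 19 genes that were also measured by PCR in the study, 18 had a transcript cluster of their own, and 2 of these were free of overlap, Krt17 and Tgfb1. For Krt17 the study reported a low change by PCR and could not establish its array rise between the last pair of ages by that method. For Ttn and Ppargc1a the study's PCR gave smaller changes than its arrays did. Tgfb1, the growth factor TGF-beta 1, ran from 8.53 to 9.13 in week 3, from 7.69 to 7.96 in week 6 and from 8.11 to 8.41 in week 8, a difference of -0.65 (SE 0.09) that did not reach 2-fold. Ppargc1a, a coactivator of mitochondrial genes, had medians of 6.64, 7.18 and 6.54 in weeks 3, 6 and 8, with overlap, and a difference of 0.66 (SE 0.16, adjusted p = 0.000861) that was not called. A dimmer transcript cluster of Ppargc1a lay above without overlap and passed the contrast in limma, at 1.30 (adjusted p = 2.06e-08). The 2 transcript clusters of this gene thus differ in whether it turned. Col1a2, Col3a1, Col5a2 and Col6a3, all fibril or microfibril collagens, had differences of -0.61, -0.88, -0.37 and 0.03 with overlap, and Ttn and Myo5a rose by 2.31 and 1.11. Egfr, Fbn2, Fyn, Igf2, Myo18b and H2bc4 lay between -0.63 and 0.52 and were not called. The study's arrays gave H2bc4, there named Hist1h2bc, as higher in week 8 than in week 6, with a low change by PCR. Here it was 0.52 higher in week 6 than in week 8. The Myo18b value, -0.43, is that of the brightest of 20 transcript clusters, and 13 of the other 19 had the opposite sign, over a range of -0.23 to 0.88. Tgfb2, Neurod1 and Ccn2, the last also known as Ctgf, had differences of 0.12, 0.50 and -0.81 and were not called.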

How the data were processed

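The authors deposited log2 signals of 30 Mouse Gene 1.0 ST arrays. Robust multiarray averaging and a batch removal by scan date stand in the study's methods, whereas the submitters' processing notes list Partek 6.5 with GCRMA, and which of these made the deposited log2 values is not settled. Scan dates, sex and the genome build of the array annotation are not given in the sources used here, so a batch that follows the weeks could not be tested. The values were used as deposited, and 1 column, week 2 replicate 4, is the mean of the other 5 arrays of that week. It stayed in the planned fit and was left out in an alternative chosen after seeing the data. A model with a mean for every age was fitted by limma 3.58.1 (R 4.3.3) to the 35556 transcript clusters of all 30 arrays, and p-values were adjusted after Benjamini and Hochberg within each contrast. Fold changes are 2 to the power of the log2 difference. Of the transcript clusters 21789 carried 1 symbol, 1621 several and 12146 none. A gene is represented by the brightest transcript cluster with its symbol alone, in Python 3.11.15.

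Genes named were the 12 largest turns each way, up to 3 per list, those at the edge of the rule, the genes of the study's PCR (Tgfb1, Tgfb2, Neurod1, Ccn2 and Ppargc1a were added after their values were seen), and related genes picked in the same way. Members and the 42 lists, with 1325 of 1517 symbols matched, were chosen with earlier results of these data known. Sequences, lengths and chromosomes came from RefSeq (GRCm38.p6). The fit was tested on simulated data for the contrast of week 6 against weeks 3 and 8. Of 200 transcript clusters changed by 1.5 log2 among 35556, 196 were called, with 1 false call among the unchanged ones. The simulated arrays were independent draws without differences of scale, sex or batch, so the test does not cover these. The alternatives changed scaling, filters, arrays, covariates and thresholds. The number of arrays limits the precision, and p-values measure the spread between mice of 1 family.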

Additional observations from a re-analysis of the deposited data

Results flagged for a closer look

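Among the genes named above, 408 groups of 6 arrays were examined, and in 36 of them an array stood far from the other 5. Chance alone gives this in about 1 group of 20. Week 8 replicate 2 was the array in 13 of the 36. It was low for the keratins and junction genes Krt5 (12.21), Krt12 (11.56), Krt6b (10.98) and Jup (9.81), for the chaperones Hspb1 (9.11), Dnajb4 (6.88), Hspd1 (8.08) and Dnaja1 (7.44), and for Rplp0 (11.08), Msmo1 (8.55), Gnl3 (6.67), Egfr (8.88) and Erbb2 (8.14). The other 5 arrays of week 8 ran from 12.90 to 13.02 for Krt5 and from 10.79 to 10.95 for Jup. Week 3 replicate 3 was low for Krt13 (11.02), Krt5 (11.53), Krt12 (8.36) and Krt6b (10.49) and high for Nes (7.90), Notch3 (10.35), Epas1 (11.72) and Adgrg1 (9.07).

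Week 8 replicate 6 was low for Kcnj13 (5.81), Rpe65 (3.58), Myo5a (6.05), Ogn (5.53), Lum (6.45) and Fyn (6.40). For Rpe65 the other 5 arrays ran from 6.60 to 7.86, and for Ogn from 7.19 to 7.54. Week 3 replicate 2 was high for Ifit1 (6.84), Ifi27l2a (7.16) and Usp18 (6.81), and for Ifit1 the other 5 ran from 5.33 to 5.79. It was low for Ppargc1a (6.05). In week 6, replicate 2 was low for Anpep (6.97) and Atp5d (8.83), replicate 3 was low for Msmo1 (9.22), and replicate 1 was high for Rpsa (9.67). For 2510002D24Rik week 3 replicate 5 was low (6.98).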

How the results depend on the processing

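Leaving out each of the 18 arrays in turn gave 1257 to 1459 transcript clusters for week 6 against the average of weeks 3 and 8 (1305 with all), 3655 to 4547 free of overlap (3604), 2527 to 2897 for week 6 versus week 3 (2696), 1216 to 1492 for week 6 versus week 8 (1343), 1632 to 1900 for week 8 versus week 3 (1820), 2094 to 2316 for week 6 versus week 1 (2177) and 2244 to 2531 for week 6 versus week 2 (2392). In the order contrast, week 3, week 8, week 8 versus week 3, week 1 and week 2, the calls without a fold threshold were 17226, 19698, 12866, 15293, 19705 and 17412. In the same order they were 665, 1504, 712, 965, 1429 and 1287 above the median signal, and 433, 1138, 353, 572, 1228 and 920 with 1 symbol only, where fewer transcript clusters were tested. With array spread (interquartile range) as a covariate the contrast called 2060 and week 8 versus week 3 called 1212, and the cause was not tested. After median centring 38.6% of the calls against week 3 were higher (51.4% as deposited) and 60.2% of those against week 8 (70.6%). Of the transcript clusters free of overlap, 2389 had 1 symbol, 248 had a gap of at least 0.5, 684 a difference of at least 1, and 6079 passed where 5 of the 6 week 6 arrays had to clear the flanks. No alternative turned the direction of a called gene named above, and 14 of the 68 lost the call under at least 1 of them. Without week 2 replicate 4, the averaged array, chosen after seeing the data, the calls in the same order were 1305, 2696, 1341, 1817, 2172 and 2381. The replicate numbers are shared by label only: same-numbered arrays correlated between -0.41 and 0.46, in 3 of the 18 pairs an array correlated best with its own number, and with the replicate number as a block the contrast called 1304, 2697, 1341, 1821, 2173 and 2391 in the same order.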
